A study of Mus musculus with 10 samples.

Results

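The livers of the 5 mice that received CD95-Ab, an agonistic antibody against the death receptor CD95 (Fas), were described on their own, as a measure of how far animals given the same injection differ from each other. They are 5 of the 10 samples of the study, and the mice given saline enter no value below. Genes were taken when every 1 of the 5 livers held at least 10 counts, which 12851 of the 38922 genes in the files did. That rule rests on the counts alone, while many of the genes described below were named for the size of their spread.

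The study asked how acute liver failure changes gene expression, and measured it in whole liver by RNA sequencing. All 5 animals were wild-type male C57BL/6N mice of 6 weeks, injected intraperitoneally with 0.5 µg CD95-Ab per g of body weight and killed 6 h later. Each library came from the liver RNA of a single animal, and the labels number the animals as biological replicates 1 to 5. Neither the clock time of the injection, nor the feeding state at death, nor a day of RNA extraction is given for any of them.

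CD95 is carried by hepatocytes, and its engagement assembles a signalling complex on the adaptor Fadd in which caspase 8 is activated. Caspase 8 cleaves Bid, which acts on mitochondria and leads to the activation of caspases 9 and 3, so that hepatocytes die by apoptosis within hours and the sinusoids fill with blood. RNA of whole liver tissue also carries the transcripts of blood cells, Kupffer cells, endothelium and bile ducts. The hepatocyte itself runs programmes that follow the clock, feeding, glucocorticoids and growth hormone. In whole tissue, fewer cells of a type and less RNA per cell cannot be told apart.

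The total count per liver ran from 27480796 to 44962196, so that 3 counts correspond to 0.0667 to 0.109 counts per 1000000 (CPM), the scale used below with totals corrected by TMM factors. All 5 libraries read as liver of a male: albumin (Alb) held 2.88% to 5.44% of the count, 5 of the 5 libraries carried at least 1640 counts of the Y-linked Ddx3y, and Xist did not exceed 3 counts. No skeletal muscle marker of 3 was kept. The libraries differed in composition before any gene was examined. Transcripts of the mitochondrial genome held 8.45, 11.3, 18, 22.1 and 14.1% of the count in mice 1 to 5, the 4 adult hemoglobin genes 0.112, 0.69, 3, 1.73 and 0.521%, and the major urinary protein (Mup) genes 4.82, 10.4, 3.85, 11.4 and 13.7%. Mouse 4 had the largest mitochondrial share and mouse 1 the smallest mitochondrial and hemoglobin shares, whereas the Mup share was low in mice 1 and 3 alone.

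The first principal component of log2 CPM held 40.8% of the variance between the 5 livers and the second 29.0%. Mouse 4 stood at 48.1 on the first component, with the other mice between -28.9 and -1.11. On the second component, mouse 3 stood at 40.8, against -19.2 to 3.55 in the others. Mice 1 and 2 were the most alike pair, with 3.24% of genes at least 2-fold apart, and mice 1 and 4 the least alike, with 12.4%.

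**Figure D1:**
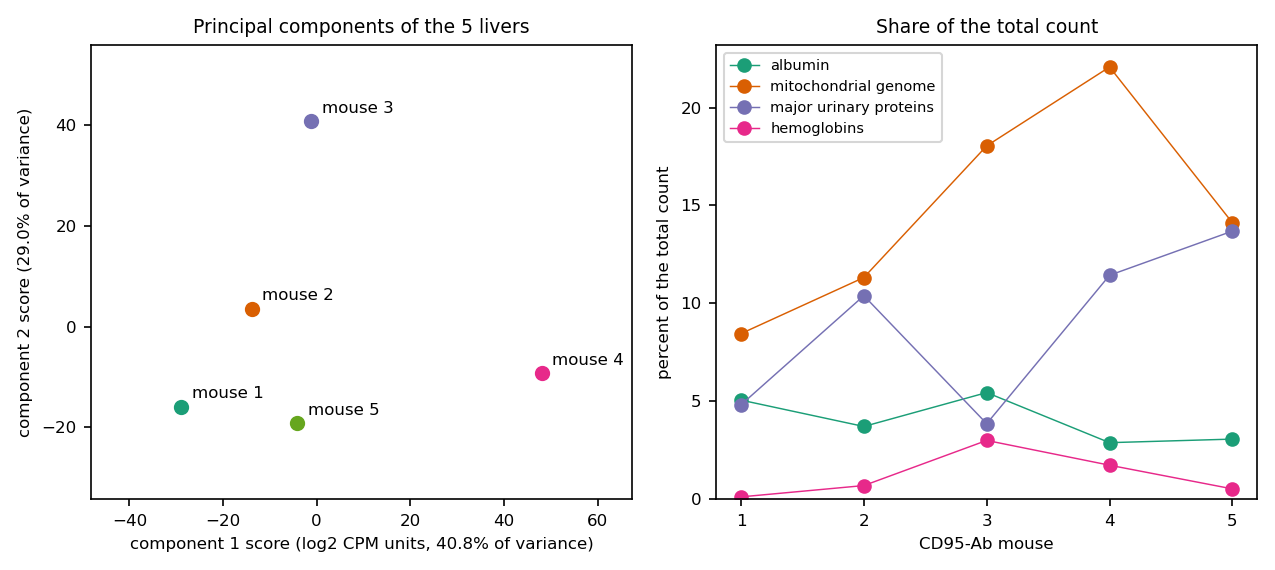
Left, scores of the 5 CD95-Ab livers on the first and second principal components of log2 CPM over 12851 genes, 1 point per mouse. Right, percent of the total count held by albumin, the mitochondrial genome, the Mup genes and the 4 hemoglobin genes in each mouse, with lines joining the values of 1 group; mouse 4 lies far out on the first component and mouse 3 on the second.

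How much a gene varied was measured by the standard deviation (SD) of its log2 CPM over the 5 mice. The median gene had an SD of 0.30, and the middle range of genes ran from 0.20 to 0.43. The highest mouse was at least 4 times the lowest in 443 genes, or 3.45% of those kept. Most genes, 11301 or 87.9%, varied more than Poisson counting allows (chi-square dispersion test over the 5 mice, Benjamini-Hochberg adjusted p of at most 0.05). That test asks only whether the 5 libraries differ at all, and each kept gene whose values are given below passed it. In genes simulated with no spread beyond counting it called 0.0632% of 12651. At the threshold on counts, 125 genes had their lowest mouse at exactly 10 counts and 124 genes just outside had theirs at 9, with median highest values of 32 and 28 counts.

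The 20 most variable genes fell into a few recognisable groups. Of these, 4 are Mup genes and 4 are hemoglobins. Dbp and Arntl belong to the circadian clock. Zbtb16, a transcription factor, A2m, a protease inhibitor of plasma, Mfsd2a, a lysophospholipid transporter, and Slc10a6, a carrier of sulphated steroids, were also among them. Mouse 3 was the highest in 11 of the 20 and mouse 1 the lowest in 10. Other members were the epidermal gene Sprr1a, Apol8, the neutrophil granule gene Ngp, Cyp2c55 and Gm6472.

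Some abundant genes, by contrast, hardly varied. Among the 1035 genes with a mean of at least 100 CPM, the 10 most even, taken for that reason, had an SD of 0.04 to 0.06. Gc, the vitamin D binding protein of plasma, stood at 4576, 4251, 4208, 4145 and 4094 CPM in mice 1 to 5. Errfi1, a feedback inhibitor of the EGF receptor, stood at 1218, 1272, 1187, 1127 and 1219 CPM, and Gjb2, the connexin of hepatocyte gap junctions, at 425, 442, 446, 416 and 445 CPM. Net1, Hs6st1, Cct8, Ube2d3, Rrbp1, Hao1 and Adk completed these 10. The range of each was 1.07-fold to 1.13-fold between the lowest and the highest mouse, while 35 of the 1035 abundant genes spanned at least 4-fold.

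**Figure D2:**
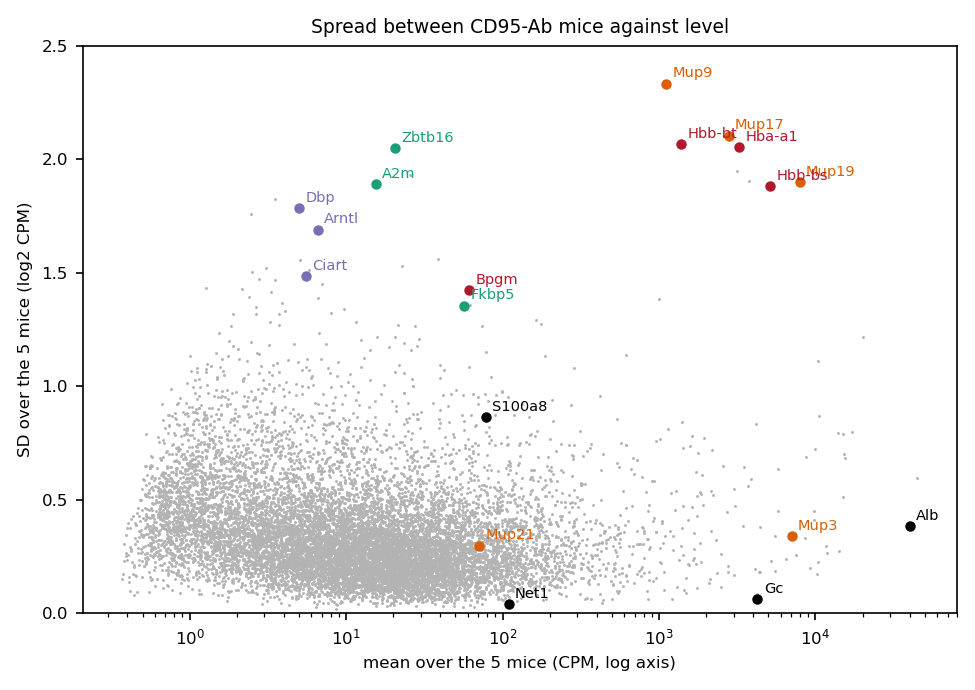
Each grey point is 1 of the 12851 genes, placed by its mean CPM over the 5 mice on a log axis and by the SD of its log2 CPM; coloured points are named genes of the Mup family (orange), red cells (red), the clock (violet), glucocorticoid-responsive genes with A2m (green) and others (black). Mup9 lies highest at an SD of 2.33, and Net1 and Gc lie near the lower edge at 0.04 and 0.06.

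Red cell transcripts had the widest spread of the 47 gene lists with a kept gene (2 further lists were drawn up later). Hbb-bs, the beta-globin gene at chr7:103826534-103828096, stood at 428, 2823, 12825, 7306 and 2198 CPM in mice 1 to 5. Its neighbour Hbb-bt at chr7:103812524-103813996 stood at 85.2, 651, 3413, 2162 and 616 CPM. The alpha-globin copies Hba-a1 and Hba-a2 on chromosome 11 stood at 224, 1599, 7804, 5584 and 1019 CPM and at 245, 1639, 7813, 4818 and 1184 CPM. For each of the 4 genes mouse 1 was the lowest and mouse 3 the highest, with mouse 4 next below it, and the ranges were 30-fold, 40-fold, 34.8-fold and 31.8-fold. The near-identical copies share reads, which the authors' counting divides between them, so the sum of a pair is firmer than either member.

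The proximal promoters of the 4 globin genes are shown because their transcripts moved together. They lie before the start of transcription in RefSeq. In GENCODE M21 those of Hba-a1 and Hbb-bs lie inside the gene, and that of Hbb-bt does so in part. Whether reads from these bases were counted is not given. In the following RefSeq stretches (GRCm38.p6, 83 bases ending just after the TATA-type motif, sense strand), capitals mark CCAAT on either strand and ATATAA. Hba-a1 lies at chr11:32283569-32283651, Hba-a2 at chr11:32296386-32296468, Hbb-bs at chr7:103827951-103828033 and Hbb-bt at chr7:103813945-103814027.
Hba-a1: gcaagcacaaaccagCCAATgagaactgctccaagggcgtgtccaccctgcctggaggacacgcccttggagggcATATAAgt
Hba-a2: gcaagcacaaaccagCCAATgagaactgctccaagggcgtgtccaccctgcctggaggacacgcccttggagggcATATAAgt
Hbb-bs: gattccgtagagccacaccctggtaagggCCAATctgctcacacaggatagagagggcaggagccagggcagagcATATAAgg
Hbb-bt: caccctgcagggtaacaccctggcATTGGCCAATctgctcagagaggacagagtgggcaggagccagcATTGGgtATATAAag
Hba-a1 and Hba-a2 matched at 83 of 83 bases, and Hbb-bs and Hbb-bt at 61. The motif CCAAT occurred in 37.4% of all 32851 promoter windows of 300 bases and ATATAA in 9.82%, on either strand, so neither is particular to globins.

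Other erythroid genes followed the same mice. Bpgm, the enzyme that makes 2,3-bisphosphoglycerate, stood at 10.1, 36.5, 137, 83.4 and 38.2 CPM, and Alas2, the first enzyme of erythroid heme synthesis, at 72.1, 137, 394, 270.3 and 163 CPM. Alas2 spanned the least of the list. Of the 8 list members 7 were kept, all 7 lowest in mouse 1 and highest in mouse 3, where 20% and 19.2% of all genes had those extremes, and all 7 spanned 4-fold. The member left out, Slc4a1, the anion exchanger of the red cell membrane, had 2 counts in mouse 1 and stood at 0.0637, 2.44, 13.4, 7.48 and 3.58 CPM. The summed level of the list was 1067, 6900.5, 32449, 20277 and 5239.9 CPM.

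The order of the mice by Hbb-bs, which ran 1, 5, 2, 4, 3 from low to high, was shared by 141 of the genes, 1.10%. An order of 5 mice is 1 of 120, and these orders held 23 to 342 genes, with a median of 100. Beside the other 3 hemoglobins, the most variable genes with that order were Apol8 at 0.318, 0.897, 8.99, 1.5 and 0.557 CPM, Apol11b, Tent5c and Fgf23, which encodes the hormone of phosphate balance. The platelet chemokine Ppbp shared it too, at 2.61, 7.42, 11.2, 10.5 and 6.36 CPM. All 5 platelet markers were lowest in mouse 1, against 20% of all genes, or 4 of them, against 8.3%, with library totals. The reverse order was held by 171 genes, none of which spanned 4-fold, with Trim14, an adaptor of antiviral signalling, and Acsl3, an acyl-CoA synthetase, among the widest.

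The Mup genes, which encode the pheromone carriers that male mice excrete in urine, supplied the single most variable gene. Mup9 at chr4:60418046-60421952 stood at 226, 1367, 51.1, 1552 and 2359 CPM in mice 1 to 5, a range of 46.1-fold. Mup17 stood at 311, 3355, 308, 4228 and 5737 CPM and Mup19 at 2012, 9524, 742, 13176 and 14253 CPM. Mice 1 and 3 were low and mice 2, 4 and 5 high, without overlap between these values in any of these 3 genes. The abundant Mup7 stood at 7712, 22756, 5353, 33657 and 30784 CPM, in the same arrangement.

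Not every Mup gene varied as widely. Mup3 stood at 5113, 6622, 6579.6, 9848 and 7126 CPM, Mup21 at 60.6, 61.4, 59, 93.2 and 81.2 CPM and Mup20, the gene of the pheromone darcin, at 3511, 6264, 3201, 4406 and 4698 CPM. Their ranges were 1.93-fold, 1.58-fold and 1.96-fold. Mice 1 and 3 were again below mice 2, 4 and 5 in each, but by a small margin in Mup3 and Mup21. Over the 21 kept genes of the family the SD ran from 0.30 to 2.33, and 13 of them spanned 4-fold. Mouse 3 was the lowest in 14 and mouse 1 in 7, while the highest was mouse 5 in 11, mouse 4 in 9 and mouse 2 in 1. With library totals in place of TMM factors the highest was mouse 5 in 16, against 21.2% of all genes, and mouse 4 in 4, against 15.4%. The family lies in a cluster on chromosome 4 and its copies are close in sequence, so how reads were divided between Mup9, Mup17 and their neighbours is uncertain. The sum over the family, 42128, 101011, 40949.6, 131273 and 131874 CPM, does not depend on that division within the family.

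Stretches of 83 bases that end just after the TATA-type motif are given for 3 Mup genes with a wide range and 3 with a narrow one, because the A-rich tract before the motif is where the promoters visibly differ. Capitals mark ATATAA or its reverse complement TTATAT, positions are in GRCm38.p6 from RefSeq, and all 6 lie on the minus strand: Mup9 at chr4:60421975-60422057, Mup17 at chr4:61595849-61595931, Mup19 at chr4:61782247-61782329, Mup10 at chr4:60582177-60582259, Mup3 at chr4:62087320-62087402 and Mup21 at chr4:62150841-62150923.
Mup9: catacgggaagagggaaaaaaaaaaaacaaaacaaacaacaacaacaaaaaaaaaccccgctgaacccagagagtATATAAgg
Mup17: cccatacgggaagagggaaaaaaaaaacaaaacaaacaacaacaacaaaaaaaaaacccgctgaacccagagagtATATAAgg
Mup19: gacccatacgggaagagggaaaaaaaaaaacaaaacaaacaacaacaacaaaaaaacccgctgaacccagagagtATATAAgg
Mup10: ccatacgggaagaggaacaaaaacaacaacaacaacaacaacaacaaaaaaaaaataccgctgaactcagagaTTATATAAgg
Mup3: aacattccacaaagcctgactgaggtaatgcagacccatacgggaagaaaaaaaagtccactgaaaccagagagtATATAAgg
Mup21: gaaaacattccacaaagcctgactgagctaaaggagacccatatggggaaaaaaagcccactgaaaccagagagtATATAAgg
Between the bases CCCATA and TATATAA lay 70 bases in Mup9, 68 in Mup17 and 66 in Mup19, against 34 in Mup3 and 31 in Mup21. Length of the tract did not sort the family by spread, however. Mup10 had 69 bases at an SD of 0.51, at 8797, 14418, 12512, 22954 and 16795 CPM, whereas Mup6 had 35 bases at an SD of 0.96 and Mup4 had 37 at 0.95.

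Other genes that liver expresses more in males than in females were arranged much as the Mup family was. Hsd3b5, a steroid dehydrogenase, stood at 14.4, 31.5, 27.9, 116 and 122 CPM. Cyp7b1, an oxysterol hydroxylase, stood at 143, 369.5, 81.5, 433 and 407 CPM and Elovl3, a fatty acid elongase, at 25.5, 68, 48.3, 137 and 140.3 CPM. Mice 4 and 5 were above mice 1 and 3 in each of these 3 genes. All 18 members of the male-biased list were kept, 11 of them spanned 4-fold, and mouse 4 was the highest in 13, whereas 29.5% of all genes had their highest value in mouse 4. With library totals mouse 4 was the highest in 7, against 15.4% of all genes, and mouse 5 in 9, against 21.2%. Cyp2d9 hardly varied, at 553, 529, 591, 726 and 514 CPM. The list holds 7 Mup genes, so its count is not separate from theirs. Mouse 3 was the lowest in 11 of the list, against 20.5% of all genes. Of the 15 female-biased genes 4 were kept: Cyp17a1, which makes androgen precursors, stood at 8.4, 3.87, 8.69, 1.69 and 3.6 CPM and the monooxygenase Fmo2 at 13.5, 4.67, 12.4, 4.41 and 5.51 CPM, both higher in mice 1 and 3 than in the other mice. Prom1 was otherwise arranged, at 1.02, 0.557, 3.17, 1.1 and 0.986 CPM, and of the 4 genes 3 were highest in mouse 3 and 3 lowest in mouse 4.

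Of the 17 kept clock genes mouse 1 was the highest in 8, against 19.2% of all genes, and the lowest in 4, while mouse 5 was the lowest in 7. With library totals mouse 1 was the highest in 9, against 41.1% of all genes. Dbp, a clock-driven transcription factor whose transcript swings widely over the day, stood at 18.9, 1.21, 2.34, 2.05 and 0.664 CPM in mice 1 to 5. Per3 stood at 7.51, 0.618, 0.944, 1.02 and 0.686 CPM and Per2, another clock repressor, at 41, 8.23, 18.7, 12.5 and 7.31 CPM. Tef, a factor related to Dbp, stood at 70.9, 12.6, 19.3, 18.1 and 14 CPM. Mouse 1 was the highest in all 4 genes, and in Per3 and Tef it was separated from the other mice by Dixon's criterion, by which the gap to the nearest mouse exceeds 0.71 of the whole log2 range. Dbp and Per2 did not reach that limit.

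Opposite to these, mouse 1 was the lowest for Arntl and for Nr1d1. Arntl, which encodes BMAL1, the partner of CLOCK, stood at 0.605, 9.34, 3.93, 5.47 and 13.6 CPM, and Nr1d1, the nuclear receptor that represses it, at 25.6, 77.5, 89.4, 119 and 79.1 CPM. Npas2, a relative of CLOCK, had 1 count in mouse 1 and stood at 0.0318, 2.94, 0.718, 0.748 and 3.43 CPM, and thus fell under the threshold on counts. Mouse 5 was the highest in Arntl and Npas2 and the lowest in Dbp and Per2. Ciart, a repressor of BMAL1, was high in mouse 3 as well as in mouse 1, at 12.6, 2.2, 9.93, 1.65 and 1.37 CPM. In all 8 of the 17 spanned 4-fold, and Nr1d2, Hlf and Bhlhe40 spanned the least, with ranges of 1.56-fold, 1.78-fold and 1.81-fold.

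The best-known clock motifs stand in the promoters of some of these genes, and are printed to show where the letters of each motif lie. The E-box CACGTG is bound by CLOCK and BMAL1, the D-box, searched as TTANGTAA, by Dbp and its relatives, and AAAGTAGGT by the ROR and Nr1d receptors. Each was searched on both strands in RefSeq windows (GRCm38.p6) from 250 bases before to 50 after the annotated start, and capitals mark the matches. Ciart lies at chr3:95882254-95882358 (minus strand), Tef at chr15:81811254-81811313 (plus), Per3 at chr4:151044801-151044885 (minus) and Arntl at chr7:113207491-113207513 (plus).
Ciart, E-box: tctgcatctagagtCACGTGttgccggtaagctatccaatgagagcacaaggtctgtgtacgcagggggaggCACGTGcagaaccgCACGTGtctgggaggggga
Tef, E-box: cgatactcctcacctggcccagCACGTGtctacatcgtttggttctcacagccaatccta
Per3, D-box: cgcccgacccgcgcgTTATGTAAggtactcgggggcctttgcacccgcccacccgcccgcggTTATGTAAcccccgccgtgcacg
Arntl, receptor motif: gattggtcggAAAGTAGGTtagt
Ciart held 3 E-boxes and Per3 held 2 D-boxes, and Per1, Cry1 and Bhlhe41 held an E-box as well. Of the 14 clock genes with a window, 5 held the E-box, which occurred in 7.15% of all windows. The D-box occurred in 2.32% and the receptor motif in 0.183% of all windows. For a gene without a match, these letters are only absent from this window.

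**Figure D3:**
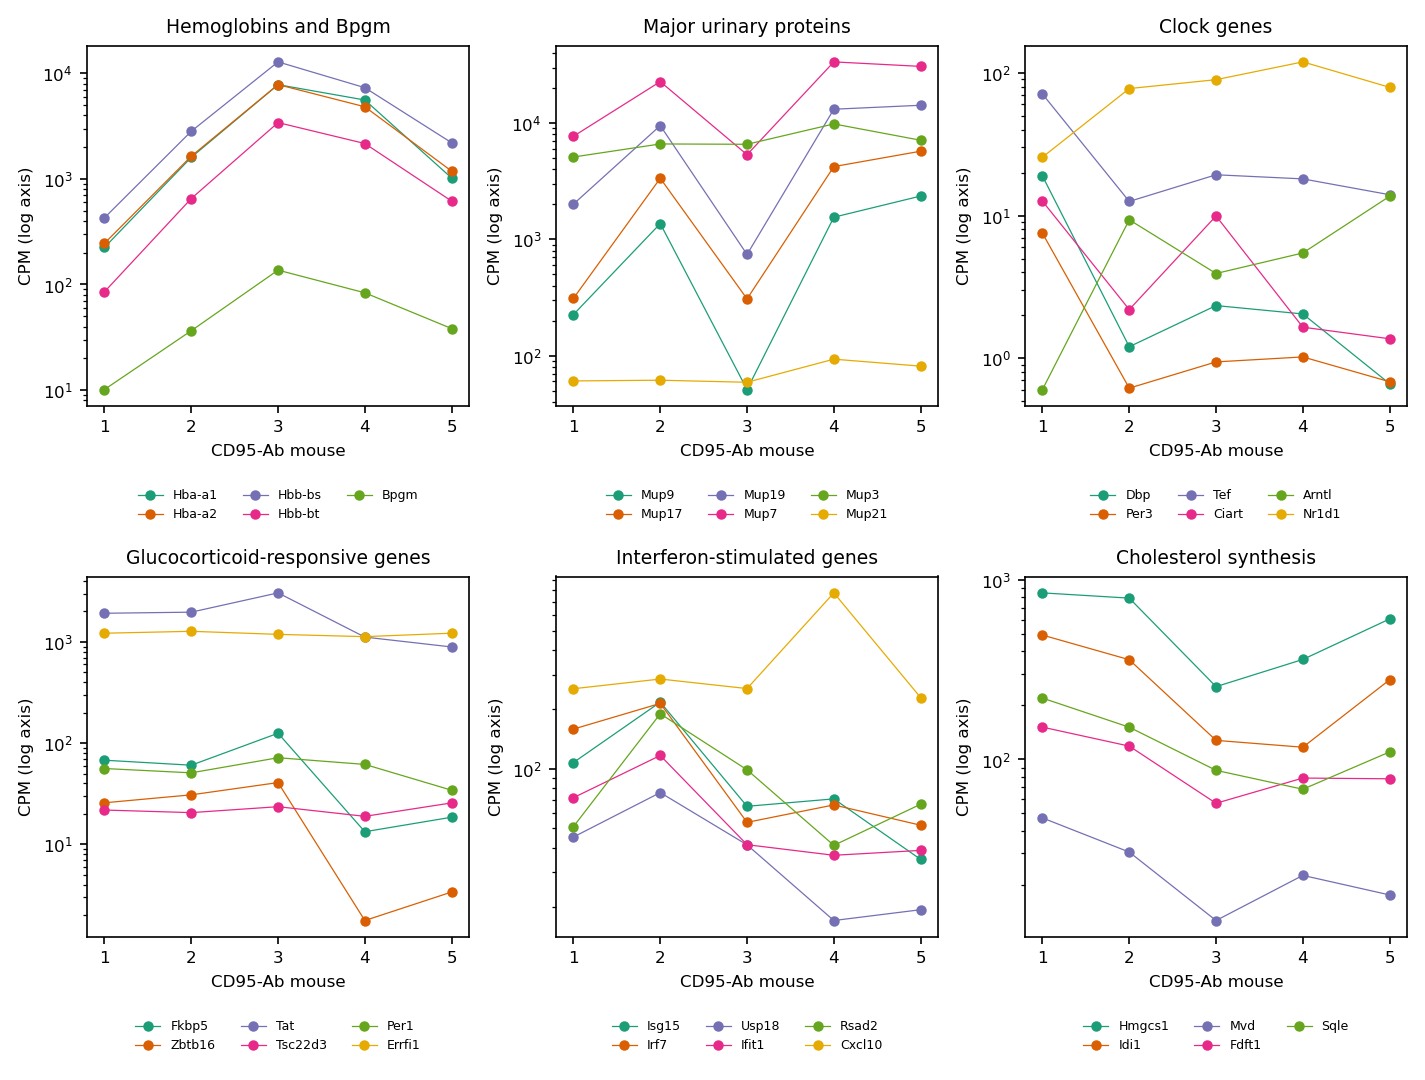
CPM of named genes in each CD95-Ab mouse on log axes, in 6 groups, with 1 point per mouse and lines joining the values of a gene; the mice have no order. Hemoglobins are lowest in mouse 1 and highest in mouse 3, Mup9, Mup17, Mup19 and Mup7 are low in mice 1 and 3, and Dbp, Per3 and Tef are highest in mouse 1 where Arntl and Nr1d1 are lowest.

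The share of albumin ran from mouse 4 through mice 5, 2 and 1 to mouse 3, at 5.06, 3.71, 5.44, 2.88 and 3.06% in mice 1 to 5. Albumin is the chief plasma protein of the hepatocyte, and on the corrected scale Alb stood at 44245, 36059, 57847, 33090 and 29515 CPM, where mice 4 and 5 change places. Its range of 1.96-fold was modest, and 156 genes, 1.21%, put the 5 mice in the order of the albumin share. A further 175 genes, 1.36%, put them in the reverse order. The most frequent order of all held 342 genes, 2.66%, and ran from mouse 5 through 1, 2 and 3 to mouse 4. The albumin order and its reverse each held more genes than the median order, with 100.

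The widest genes in the albumin order included known targets of the glucocorticoid receptor. Fkbp5, a co-chaperone that the receptor induces, stood at 67.8, 60.5, 125, 13.3 and 18.6 CPM in mice 1 to 5. Zbtb16 did not share the order, but stood at 25.8, 30.9, 40.8, 1.77 and 3.38 CPM and was lowest in mice 4 and 5. A2m stood at 17.1, 11.6, 44.7, 2.12 and 2.27 CPM and the ganglioside synthase St3gal5 at 94.2, 67.6, 126, 26.7 and 34.1 CPM, both in the order. In all 4 genes mice 4 and 5 were below mice 1, 2 and 3.

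Classical glucocorticoid-responsive genes did not behave alike, in a list of 13 that was drawn up after these values had been seen. Tat, tyrosine aminotransferase, stood at 1918, 1966, 3048, 1115 and 891 CPM and was low in mice 4 and 5. Tsc22d3, which encodes GILZ, stood at 21.8, 20.6, 23.6, 18.9 and 25.7 CPM, and Pck1, the gluconeogenic carboxykinase, at 1756, 1425, 1543, 1089 and 1336 CPM. Their ranges were 1.36-fold and 1.61-fold, and Tsc22d3 was highest in mouse 5. Klf9 was low in mouse 4 alone, at 36.2, 51.3, 64.2, 19.2 and 56.3 CPM. Mouse 3 was the highest in 9 of the 13 and only Fkbp5 and Zbtb16 spanned 4-fold. Slc10a6 and Mfsd2a, outside that list, stood at 1.97, 3.96, 8.16, 0.787 and 0.6 CPM and at 80.5, 36.8, 50.6, 20.8 and 4.82 CPM and were lowest in mouse 5.

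Further genes in the albumin order were Upk3b, Gpc3, Cyp39a1, Eif4ebp2, Aebp1, Cyp17a1 and Col6a2. Upk3b marks mesothelium, the lining of the liver surface, and stood at 4.14, 3.56, 7.86, 0.511 and 1.48 CPM, with the mesothelial gene Msln at 3.18, 3.28, 11, 1.02 and 1.11 CPM. Both were highest in mouse 3 and lowest in mouse 4. Which piece of the liver was taken is not given. Cyp39a1, a hydroxylase of oxysterols, stood at 29.6, 18, 34.7, 5.31 and 15.1 CPM. In the reverse order stood Mup1, Mup12, Mup2, Mup7, Mup14 and Mup4, Clstn3, Cyp7b1, Mpp4 and Angptl8. Angptl8, a secreted inhibitor of lipoprotein lipase that feeding induces, stood at 22.5, 35.1, 13.5, 100.2 and 39.3 CPM.

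Neutrophil transcripts were lowest in mouse 1. S100a8, a subunit of calprotectin, stood at 25.9, 66.9, 121, 77.1 and 102 CPM in mice 1 to 5, and its partner S100a9 at 48.9, 126, 187, 127 and 153 CPM. Ngp, a granule gene of immature neutrophils, stood at 0.891, 3.4, 16.9, 2.4 and 1.74 CPM and Retnlg at 8.18, 27.2, 41.4, 22.1 and 22.5 CPM. Mouse 3 was the highest in all 4 genes, whose ranges were 4.65-fold, 3.82-fold, 17.8-fold and 5.02-fold. Of the 8 kept markers 3 spanned 4-fold, against 3.45% of all genes. Mouse 1 was the lowest in 7 of the 8, against 20% of all genes, or in 6, against 8.3%, with library totals. Lcn2 was the exception to that minimum, at 2031, 2272, 2253, 1136 and 898 CPM, and it is also an acute phase gene of hepatocytes. The granule genes Ltf and Camp were under the count threshold, and were likewise highest in mouse 3, at 0.287, 1.08, 8.04, 0.787 and 1.18 CPM and at 0.159, 0.402, 3.59, 0.354 and 0.15 CPM. The hemoglobins had the same lowest and highest mouse as S100a8, and the part of blood content in the neutrophil values was not tested.

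The order of S100a8, which ran 1, 2, 4, 5, 3, was shared by 103 genes, 0.801%, and reversed by 115, 0.895%. Cyp3a59 at 5.79, 14.8, 39.5, 16.1 and 32.9 CPM and Cyp3a11, the main drug-metabolising P450 of the mouse, at 1448, 3229.8, 5896, 5118 and 5172 CPM, stood in that order together with Esm1, an endothelial proteoglycan, at 0.923, 1.24, 5.55, 2.28 and 3.96 CPM. In the reverse order stood Bhlha15, Apol9a, Sgsm1 and Asns. Mvd, Pmvk, Fdps and Fdft1, enzymes of the sterol pathway, did so as well.

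Markers of other cell types were extreme in other mice. B and plasma cell genes were highest in mouse 4 in 6 of 6 kept markers, against 29.5% of all genes. All 6 were lowest in mouse 1, against 20% of all genes. With library totals 5 were highest in mouse 4, against 15.4% of all genes, and 4 lowest in mouse 1, against 8.3%. Cd79a, a chain of the B cell receptor complex, stood at 0.828, 1.92, 1.44, 5 and 1.78 CPM and Ighm at 4.97, 5.1, 8.42, 17.5 and 10.8 CPM. These are low levels, and the summed list reached only 8.31, 10.5, 13.8, 33.7 and 19.6 CPM. Monocyte genes were highest in mouse 5 in 3 of 5, against 20.7% of all genes, among them Ccr2, the receptor that draws monocytes from marrow, at 8.34, 7.88, 8.04, 7.71 and 20.1 CPM, in which mouse 5 stood apart by Dixon's criterion. Ly6c2 differed, at 19.1, 29.7, 7.14, 7.79 and 12.4 CPM. T and NK cell markers had 5 of 8 members highest in mouse 1, against 19.2% of all genes, with Gzma at 5.64, 4.36, 3.29, 1.69 and 1.59 CPM. With library totals 6 of the 8 were highest in mouse 1, against 41.1% of all genes.

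Genes of resident macrophages were lowest in mouse 4. Adgre1, which encodes the F4/80 antigen, stood at 29, 27, 20.8, 8.11 and 25.7 CPM, Clec4f at 103, 127, 84, 49.3 and 114 CPM and Cd5l at 219, 263, 147, 107 and 200.0 CPM. Mouse 4 was the lowest in 9 of the 10 Kupffer cell and macrophage markers, when 27.9% of all genes had their lowest value in mouse 4. None of the 10 spanned 4-fold. Among stellate cell genes Hgf, at 11.4, 9.99, 10.7, 3.42 and 15.2 CPM, and Lrat, which stores retinol as ester, at 13.2, 8.44, 8.01, 3.86 and 16.7 CPM, were lowest in mouse 4 too. Of the 9 kept stellate markers 5 were lowest in mouse 4 and 3 in mouse 1, and 2 were highest in mouse 4. Of the 5 kept bile duct markers 4 were highest in mouse 3, against 19.2% of all genes. The keratin genes Krt7 and Krt19 stood at 0.86, 1.05, 4.15, 0.748 and 0.664 CPM and at 1.53, 2.16, 5.97, 2.05 and 0.964 CPM. Sox9 was highest in mouse 3 too, with mouse 4 close below, at 20.3, 46.9, 80.8, 77.4 and 56.9 CPM.

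Genes of the interferon response were highest in mouse 2. Isg15, a ubiquitin-like modifier, stood at 108, 218, 64.7, 70.6 and 34.9 CPM in mice 1 to 5. Irf7, the factor that amplifies the response, stood at 159, 215, 53.7, 65.8 and 51.9 CPM and Rsad2, which encodes viperin, at 51.1, 190.2, 99, 41.1 and 66.3 CPM. Mouse 2 was the highest in 18 of the 21 kept genes of the list, against 11.3% of all genes, and 7 of them spanned 4-fold. The 3 exceptions were Cxcl10, Irf1 and Mx2, all highest in mouse 4. Mouse 2 was the lowest in none of the 21, against 11.1% of all genes. In Mx1, a GTPase against viruses, mouse 2 stood apart by Dixon's criterion, at 11.3, 23.9, 11.7, 13.5 and 12.1 CPM, whereas in Isg15 and Irf7 mouse 1 came next below it.

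The interferon-response motif, searched as AAANNGAAA on both strands, stood in 12 of the 16 listed genes that have a promoter window, and in 10.6% of all windows. The stretches below show it in 4 of the genes, in capitals, with Isg15 at chr4:156200859-156200913 (minus strand), Ifit1 at chr19:34640769-34640828 (plus), Oasl1 at chr5:114923050-114923104 (plus) and Rsad2 at chr12:26456538-26456587 (minus).
Isg15: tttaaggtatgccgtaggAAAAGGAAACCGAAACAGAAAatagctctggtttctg
Ifit1: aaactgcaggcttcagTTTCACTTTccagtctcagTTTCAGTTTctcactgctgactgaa
Oasl1: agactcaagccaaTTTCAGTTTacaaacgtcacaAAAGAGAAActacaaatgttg
Rsad2: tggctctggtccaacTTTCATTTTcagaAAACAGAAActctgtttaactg
Isg15 held 3 overlapping matches and the others 2 each. Ifit1, which encodes a binder of foreign RNA, stood at 71.6, 117, 41.4, 36.6 and 38.7 CPM and the related sensor gene Oasl1 at 42.4, 64.1, 30.5, 28.6 and 22.7 CPM. Cxcl10 held the motif as well, and its mice were arranged differently.

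Cytokine and chemokine genes were divided between mice. Cxcl10, a ligand of Cxcr3, a chemokine receptor of T cells, stood at 255, 285, 255, 778 and 229.7 CPM. Cxcl11, annotated as a polymorphic pseudogene, stood at 7.83, 9.93, 5.06, 46.9 and 9.21 CPM. Tnf stood at 2.32, 2.32, 2.45, 7.55 and 3.06 CPM and Nfkbid, an inhibitor protein of NF-kB, at 2.23, 2.69, 2.68, 8.81 and 2.83 CPM. In each of these 4 genes mouse 4 was the highest, with ranges of 3.38-fold, 9.16-fold, 3.2-fold and 3.88-fold, and in all but Cxcl11 it stood apart by Dixon's criterion. Il1b was high in mice 4 and 5, at 14.4, 13.3, 14.1, 43.7 and 37 CPM. Cxcl9, another ligand of Cxcr3, did not follow, at 147, 188, 114, 105 and 38.4 CPM, and was lowest in mouse 5. The chemokine list as a whole had 7 of 21 kept genes highest in mouse 4, a share near the 29.5% of all genes. Nfkbid was chosen for naming after its values had been seen.

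Acute phase proteins, which hepatocytes release under interleukin signals, had a median SD of 0.40 over the 16 kept genes, against 0.30 over all genes. Saa1 stood at 5099.6, 4932, 3769.8, 4081 and 4376 CPM and Orm1 at 2222, 2312, 1824, 2117 and 1999 CPM. Saa3, which macrophages and hepatocytes make, was the widest of the 16 at 828, 787, 883, 444 and 137 CPM, low in mouse 5. Serpina3n stood at 2347, 1880.4, 3389, 999 and 1013 CPM and Steap4, a metalloreductase, at 2361, 2889, 3089.9, 928 and 1574 CPM, with mice 4 and 5 below the other mice in both, as for Fkbp5. Only Saa3 of the 16 spanned 4-fold.

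Cholesterol synthesis was highest in mouse 1. Hmgcs1, an early synthase of the pathway, stood at 848, 793, 255, 361 and 607 CPM in mice 1 to 5. Idi1, the isomerase of isoprenoid units, stood at 494, 359.8, 128, 117 and 278 CPM and Sqle, squalene epoxidase, at 219.9, 151, 87, 68.2 and 110.2 CPM. Mouse 1 was above every other mouse in 15 of the 19 genes, against 19.2% of all genes, and mouse 3 was the lowest in 13. Idi1 spanned 4-fold. Sc5d, Insig1 and Srebf2 were among those in which mouse 1 was not the highest. With library totals mouse 1 was the highest in 18 of the 19, against 41.1% of all genes. Hmgcs1 alone of 12 listed genes with a window held the sterol motif, searched as TCACNCCAC, which occurred in 1.24% of all windows. It stands in capitals in this stretch at chr13:119690191-119690244 on the plus strand.
Hmgcs1: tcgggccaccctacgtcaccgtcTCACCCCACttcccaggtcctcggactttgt

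Stress and proliferation genes had their extremes in several mice. Hypoxia-inducible genes were highest in mouse 3 in 7 of 12 kept members and lowest in mouse 5 in 8, against 20.4% of all genes, with Adm, a vasodilator peptide, at 8.15, 38.5, 34.7, 15.6 and 5.72 CPM and Ddit4, an inhibitor of mTORC1, at 29.4, 65.1, 75.3, 39.9 and 15.7 CPM. Of the immediate early genes 9 of 19 were lowest in mouse 5 and 8 in mouse 1 (10 and 4 with library totals), as in Ier3, at 47.4, 82.4, 100.3, 60.2 and 14.7 CPM, and Fosb, at 6.49, 5.84, 9.48, 11 and 1.5 CPM. Cdkn1a, the p53-induced inhibitor of the cell cycle, stood at 35.1, 152, 181, 63.5 and 66.9 CPM. Top2a, a topoisomerase of dividing cells, stood at 5.64, 5.69, 9.14, 1.22 and 4.54 CPM. Mouse 4 was the lowest in 12 of 13 cell cycle genes, against 27.9% of all genes. Unfolded protein response genes were highest in mouse 1 in 11 of 12, against 19.2% of all genes, or 41.1% with library totals. Creld2 stood at 99.4, 57, 49.1, 39.9 and 31.6 CPM.

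Some metabolic genes of the hepatocyte were highest in mouse 3 and others in mouse 4. Enzymes of amino acid breakdown and the urea cycle were highest in mouse 3 in 12 of 15, against 19.2% of all genes. Sds, the dehydratase that feeds serine into gluconeogenesis, stood at 148, 186, 423, 214 and 83.9 CPM and Tdo2, which opens tryptophan breakdown, at 477, 465, 1283, 455 and 649.6 CPM. Cps1, the first enzyme of the urea cycle, stood at 1791, 1487, 2553, 966 and 1903 CPM and was lowest in mouse 4. Glycolytic and gluconeogenic genes were highest in mouse 3 in 11 of 18, against 19.2% of all genes, with the glucose transporter Slc2a1 at 32.9, 70.3, 92.4, 64.2 and 28 CPM. G6pc, which releases glucose from the liver, differed, at 14.6, 37.8, 17.6, 41.8 and 45.1 CPM, and was lowest in mouse 1.

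Cytochrome P450 genes of families 1 to 4 were highest in mouse 4 in 12 of 19, against 29.5% of all genes. With library totals 8 were, against 15.4% of all genes. Cyp1a2 stood at 227, 273, 348, 511 and 307 CPM, Cyp2c50 at 261, 295, 330.4, 541 and 388 CPM and Cyp2e1, which oxidises ethanol, at 3122, 2611, 2244, 3201 and 2677 CPM. Among bile acid genes Cyp7a1, the rate-limiting enzyme of their synthesis, was low throughout at 1.75, 0.371, 0.453, 1.38 and 1.48 CPM, and Cyp8b1, which sets the share of cholic acid, stood at 24.8, 35.1, 27.5, 82.3 and 70.3 CPM. Mlxipl, which encodes the carbohydrate-responsive factor ChREBP, stood at 118, 148, 177, 425 and 234 CPM and Pnpla3, a lipase under lipogenic control, at 1.97, 1.39, 2.61, 6.14 and 5.18 CPM, both highest in mouse 4. Fatty acid oxidation genes had a median SD of 0.22, and 2 of 21 spanned 4-fold: Ppara, the receptor that drives them, stood at 30.5, 20.3, 28.5, 6.49 and 17.7 CPM and its target Cyp4a14 at 47.4, 37, 67.8, 37.6 and 10.1 CPM, lowest in mice 4 and 5 respectively.

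Ribosomal protein genes were highest in mouse 4 in 14 of 20, against 29.5% of all genes, and lowest in mouse 5 in 15, against 20.4%. With library totals mouse 4 was the highest in 9, against 15.4% of all genes. The 20 genes summed to 4094, 3847, 4456, 5202 and 3530 CPM. Rps6, a small part of that sum, stood at 5.19, 8.78, 6.65, 11.8 and 7.65 CPM, highest in mouse 4 but lowest in mouse 1. Of 4 metallothionein and zinc transporter genes 3 were highest in mouse 3, as in Mt1, which binds zinc and copper, at 2249, 2336, 3106, 1961 and 1130.2 CPM. NRF2 targets were lowest in mouse 5 in 6 of 12, against 20.4% of all genes, and highest in no mouse in more than 3. Gsta1, a glutathione transferase, stood at 44.9, 23, 8.5, 30.7 and 9.28 CPM. Sinusoidal endothelial markers were lowest in mouse 1 in 6 of 7, but in 0 of 7 with library totals, where 5 were lowest in mouse 4, with the hyaluronan receptor Lyve1 at 39.6, 67, 117, 51 and 71.3 CPM. Ccn1, a matrix protein that stretch and injury induce, stood at 59.9, 192, 233, 176 and 78.5 CPM. The p53 targets were highest in mouse 4 in 7 of 14, against 29.5% of all genes. With library totals mouse 4 was the highest in 4, against 15.4% of all genes, and mouse 3 in 5, against 12.3%. Gadd45b, a stress sensor, stood at 26.7, 58.6, 66.8, 126 and 34.3 CPM. Brakes of NF-kB and apoptosis were highest in mouse 4 in 10 of 13, against 29.5% of all genes, and in 6 with library totals, against 15.4%. Nfkbia stood at 88.6, 133, 180.2, 184 and 90.1 CPM.

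Genes of the injected pathway itself had a median SD of 0.23. Fas, the receptor that CD95-Ab engages, stood at 32.1, 28.8, 37.9, 41.3 and 29.2 CPM in mice 1 to 5, a range of 1.43-fold. Casp8 stood at 24.8, 31.5, 25.3, 32.3 and 29.7 CPM, Bid at 16.4, 12.3, 11.4, 15.4 and 10.3 CPM and Cflar, the inhibitor of caspase 8, at 107, 100.5, 80.7, 82.1 and 92.2 CPM. Xiap, which blocks caspases, stood at 70.3, 77.9, 75.2, 73.6 and 105 CPM with mouse 5 apart by Dixon's criterion, and Apaf1, the scaffold of the apoptosome, at 13.5, 18.2, 23.9, 10.9 and 11.2 CPM. The median deviation of the 12 kept genes spanned 0.22 between mice on the log2 scale, the narrowest of the lists with a kept gene, and none of them spanned 4-fold. With library totals it spanned 0.61, from 0.27 in mouse 1 to -0.34 in mouse 4, wider than plasma proteins at 0.37 and coagulation genes at 0.45, and the median of all genes was then shifted by 0.19 in mouse 1 and by -0.20 in mouse 4. Fasl, the natural ligand, was under the count threshold at 0.605, 0.433, 0.566, 0.354 and 0.343 CPM. Plasma protein genes of the hepatocyte spanned 0.31 by the same measure with TMM factors, coagulation genes 0.28 and fatty acid oxidation genes 0.28.

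**Figure D4:**
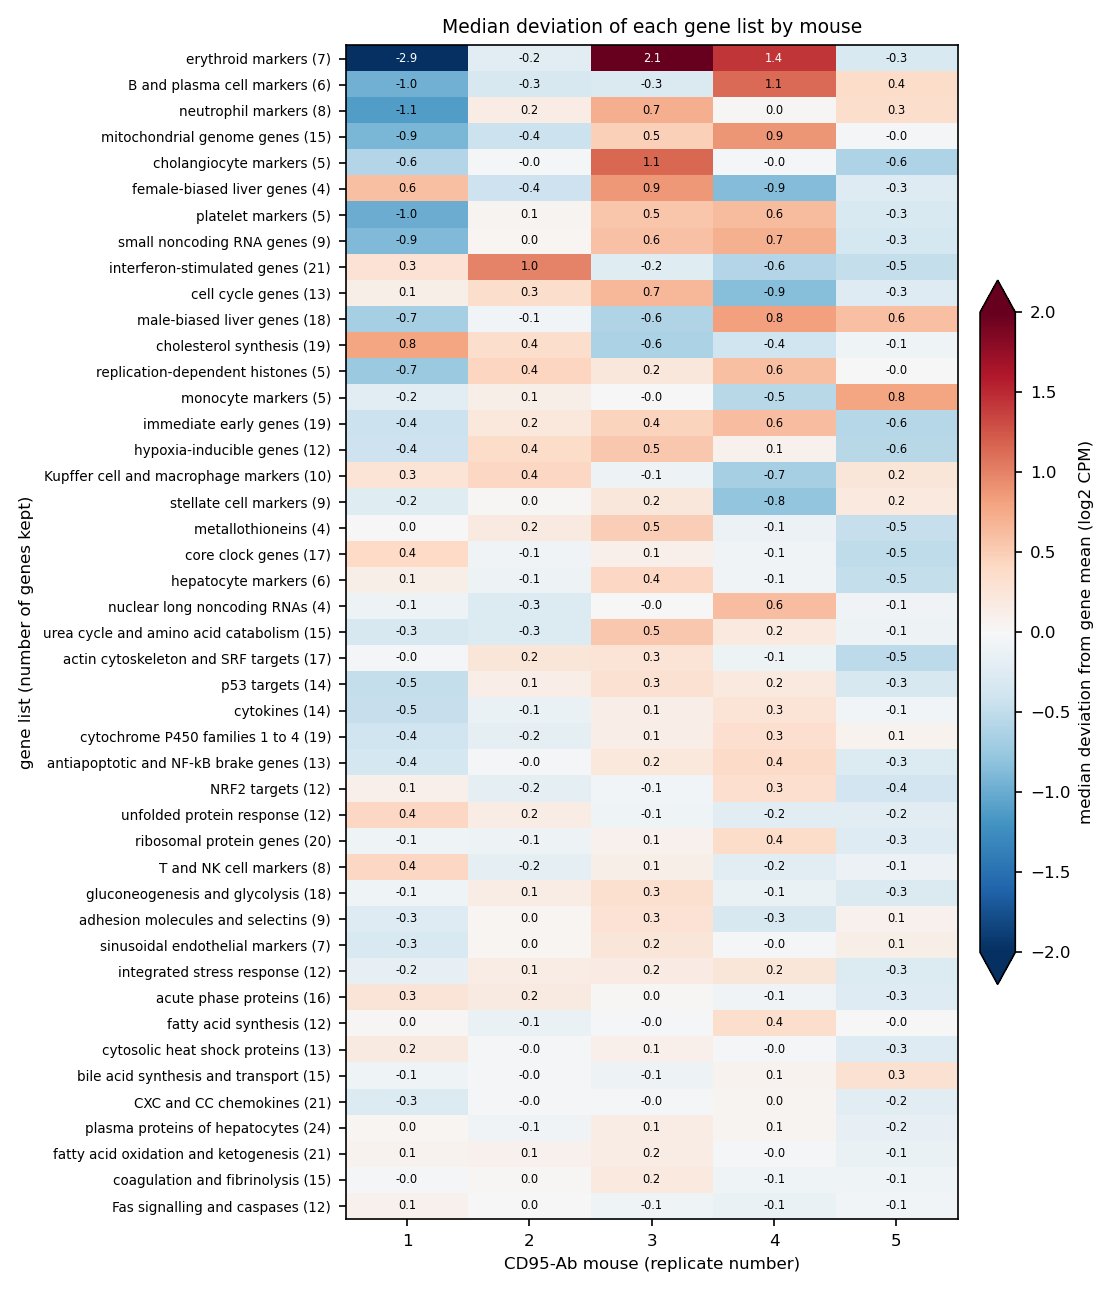
Median deviation of the kept genes of each list from their own means, in log2 CPM with TMM factors, for the 5 CD95-Ab mice, with lists of at least 3 kept genes sorted from the widest spread to the narrowest. Erythroid markers run from -2.86 in mouse 1 to 2.09 in mouse 3, interferon-stimulated genes are highest in mouse 2 at 0.99, and Fas signalling genes lie within 0.14 of 0; colours are clipped at 2 and -2.

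Mitochondrial genome transcripts moved as a block. All 15 were lowest in mouse 1, and mouse 4 was the highest in 14, with mt-Rnr2 the exception. Cytochrome b (mt-Cytb) stood at 7381, 10949, 20644, 30831 and 15538 CPM and subunit 1 of the cytochrome oxidase (mt-Co1) at 23977, 35068, 58716, 66902 and 39066 CPM. Small RNAs made by RNA polymerase III were arranged in part likewise: Rn7sk, which holds the elongation factor P-TEFb inactive, stood at 352, 675, 761, 1268 and 542 CPM. All 5 kept replication-dependent histones, whose transcripts lack poly(A) tails, were lowest in mouse 1, or 4 of them with library totals. Among lincRNA genes the median deviation was 0.31 in mouse 4 and -0.16 in mouse 1. No measure of RNA quality is given for the mice, and its part in these values was not tested.

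A single mouse stood apart from the other 4 in 873 genes, 6.79%, by Dixon's criterion, which about 1 in 20 groups exceeds by chance. Mouse 4 was that mouse in 498 of them, 3.88% of all genes, low in 303 and high in 195. Mouse 3 stood apart in 123 genes, mouse 5 in 124, mouse 1 in 94 and mouse 2 in 34. Among the lowest, Dag1, which encodes dystroglycan, stood at 28.4, 27.6, 27.5, 4.41 and 29.7 CPM, Lmbrd2 at 14.3, 10.8, 11.2, 1.93 and 19.3 CPM and Slc10a5 at 14.5, 12.4, 13.3, 2.32 and 19.7 CPM, 3 genes chosen after their values were seen. Eif4ebp2, a repressor of translation, stood at 33.9, 31.3, 34.2, 6.77 and 28.2 CPM.

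These genes differed in length. With the longest GENCODE M21 transcript of each gene, the 300 genes low in mouse 4 that have one had a median of 4623 bases and a GC content of 46.2%, and the 192 high in mouse 4 had 2525 bases and 53.9%. All kept genes had a median of 3333 bases and 49.4%. The relation ran through the whole transcriptome: of 3 groups of equal size by length, the shortest transcripts deviated by 0.20 in mouse 4 and by -0.13 in mouse 5, and the longest by -0.16 and by 0.13 (median over genes, log2 scale). Mice 1, 2 and 3 lay between -0.06 and 0.06 in the same groups. Length and GC content thus moved with the values of mice 4 and 5, and their part in the genes set apart in mouse 4, such as Adgre1, Hgf and Eif4ebp2, was not tested.

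**Figure D5:**
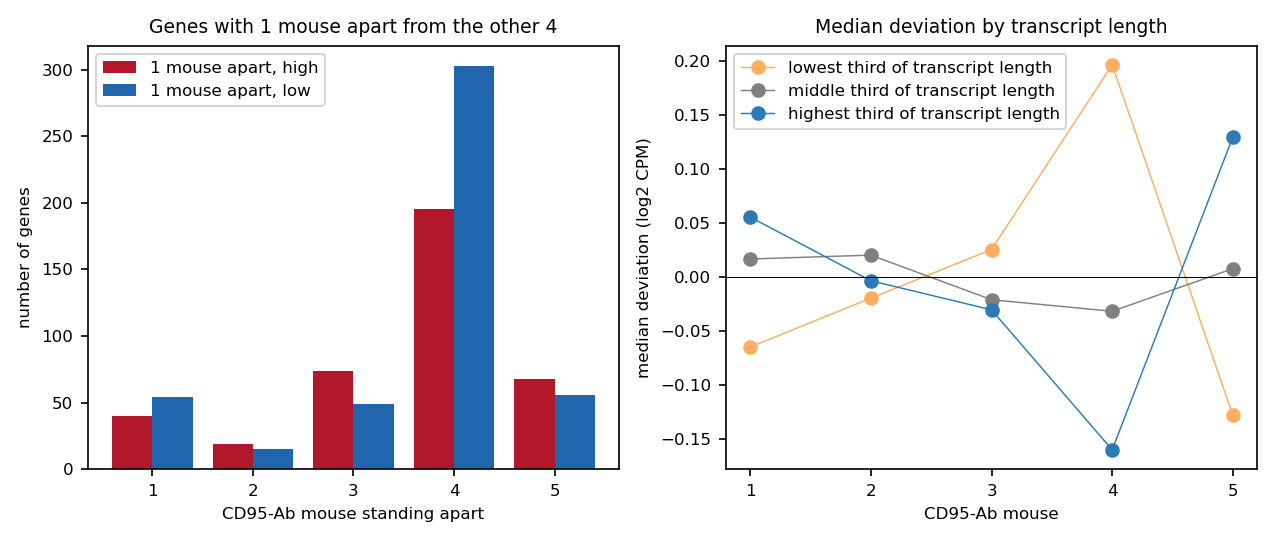
Left, number of genes in which 1 CD95-Ab mouse stands apart from the other 4 by Dixon's criterion, by mouse, high in red and low in blue. Right, median deviation from the gene mean in log2 CPM for genes in 3 groups of equal size by transcript length, from the shortest to the longest; mouse 4 has 303 low and 195 high genes, and its short genes lie at 0.20 and its long genes at -0.16.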

How the data were processed

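Liver RNA of 5 CD95-Ab mice was sequenced in paired ends from TruSeq RNA libraries (selection of poly(A) RNA and strand are not given in the sources used here). The authors aligned the reads and deposited expected counts per gene, estimated with RSEM 1.2.19 per the submitters' processing notes. Each expected count in these files was a whole number, so none was rounded. Since RSEM shares reads between similar copies, single members of the Mup, globin and Rn7s families are uncertain. The genome build is not given in the sources used here. Gene positions come from GENCODE M21 and promoters from RefSeq, both on GRCm38. The deposited FPKM values and the saline samples were not used.

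Genes with at least 10 counts in each of the 5 mice entered (12851 of 38922, of which 114 without a symbol). Log2 CPM was computed in edgeR 4.0.16 (R 4.3.3) with TMM factors and a prior count of 2. CPM values in the text carry no prior count. Spread beyond counting was tested with a Poisson dispersion chi-square over the 5 mice in scipy 1.17.1, with Benjamini-Hochberg adjustment at 0.05. Tested on simulated data of 12851 genes with the libraries of these mice, it called 79% of 100 genes given an SD of 0.5 and 98% of 100 given an SD of 1. Dixon's ratio, the gap to the nearest mouse over the range of log2 CPM, was set against 0.71. Because a single group was described, no group test and no correlation over 5 mice was computed. With 27480796 to 44962196 counts per mouse, intervals and floors of 3 counts cover counting error only. The spread between mice holds biological and technical parts alike.

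The members, the gene lists and the rule for naming genes were chosen with earlier results of these data known. The rule took the 20 genes of largest SD, the 10 of largest and the 10 of smallest SD at a mean of 100 CPM or more, the leading genes of each order of mice (10 in either direction for albumin, 5 for S100a8 and Hbb-bs), the 3 widest members of each of 48 lists, and all members of the 8 widest lists. Any other gene named, and the lists of glucocorticoid-responsive genes and of major urinary proteins, were chosen after their values were seen. Some genes that the rule took are not reported here. Alternatives were library totals, DESeq2 1.42.0 size factors, totals without albumin, 3 other count filters, prior counts of 0.5 and 5, and leaving out each mouse.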

Additional observations from a re-analysis of the deposited data

Results flagged for a closer look

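In 21 of 256 named genes a single CD95-Ab mouse lay far from the other 4, in that its gap to the nearest mouse was more than 0.71 of the log2 range of the 5. That share is near the one over all kept genes, which was 873 of 12851, or 6.79%. About 1 in 20 groups exceeds this limit by chance, and several of these genes were named because of their pattern. None of 49 list medians exceeded it.

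Mouse 4 was the distant one in 9 of these genes, and in 498 of the 873 over all kept genes. It was low in Dag1 with a ratio of 0.960, in Eif4ebp2 with 0.881, in Slc10a5 with 0.781, in Lmbrd2 with 0.745, in Adgre1 with 0.738 and in Hgf with 0.718. It was high in Nfkbid with 0.828, in Cxcl10 with 0.823 and in Tnf with 0.766. The genes in which it was low encode, among others, dystroglycan, a repressor of translation and the hepatocyte growth factor. Transcript length and GC content moved with mouse 4 over all genes, and their part in these values was not tested.

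Mouse 1 was distant in clock and platelet genes. It was high in Per3 with a ratio of 0.806 and in Tef with 0.752, and low in Nr1d1 with 0.720 and in Tubb1, the platelet tubulin, with 0.831. Mouse 5 was high in Ccr2 with 0.918 and in Xiap with 0.748, and low in the clock repressor Bhlhe41 with 0.805. Mouse 3 was high in the kinase gene Sgk1 with 0.759 and in Krt7 with 0.757, and low in Insig1, which retains the sterol sensor in the endoplasmic reticulum, with 0.855. Mouse 2 was high in Mx1 with 0.767 and low in Adk with 0.744, a gene whose whole range was 1.11-fold. The total count was also far higher in mouse 5, at 44962196, with a ratio of 0.774.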

How the results depend on the processing

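The 3 other scalings were library totals, DESeq2 size factors and totals without albumin. Under them the median SD and the counts of genes with a 4-fold range, beyond counting error or with 1 mouse apart changed little. Prior counts of 0.5 and 5 gave 488 and 386 genes with a 4-fold range. Genes beyond counting error and list spreads were not computed with those prior counts. Under the 3 scalings the spreads of the 8 widest lists moved by less than 1 SD. With library totals the mitochondrial spread was 1.41 in place of 1.80, and the platelet spread 1.27 in place of 1.62. Of 123 spreads of the other 41 lists under the 3 scalings 113 moved by less than 1 SD, and the 10 that moved further did so with library totals, Fas signalling to 0.61 among them. With library totals 98 genes stood in the reverse albumin order, against 175, and the median gene was shifted by 0.19 in mouse 1 and by -0.20 in mouse 4 on the log2 scale. At least 50 counts in every mouse left 208 genes with a 4-fold range in place of 443, and at least 1 count in any mouse gave 1484, with 3553 genes with 1 mouse apart and 256 in the albumin order. An edgeR biological coefficient of variation over 0.2 was found in 9585 genes. With a mouse left out, genes with a 4-fold range numbered 255 (without mouse 4) to 399, genes in the albumin order of the remaining mice 531 to 891 and in its reverse 615 to 975, since 4 mice have fewer orders. The erythroid spread was 2.23 without mouse 1 and up to 4.98 otherwise, the neutrophil spread 0.900 without mouse 1 and up to 1.94, the platelet spread 0.910 without mouse 1 and up to 1.72, and the cholangiocyte spread 0.637 without mouse 3 and up to 2.05. Of 205 spreads of the other 41 lists with a mouse left out 180 moved by less than 1 SD, and of 1280 ranges of named genes 1135 did. No paired analysis was possible because a single group was described and no test between groups was made. At 3 counts, a gene lies at 0.0667 to 0.109 CPM, and differences among genes of that level are not resolved.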

Other observations

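The count threshold left out 39 genes with at least 100 counts in some CD95-Ab mouse. Rps12, which encodes a ribosomal protein, had 652, 0, 1, 95 and 0 counts in mice 1 to 5, and the pseudogene Rps16-ps2 had 0, 423, 0, 0 and 1923. The pseudogene Rpl27-ps3 had 1030, 47, 996, 1 and 21 counts. These 3 resemble other loci, and reads of such genes can be assigned to any of their copies.

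Some of the other genes left out are given here, chosen after their values were seen. Csf3, the growth factor of granulocytes, had 15, 40, 138, 23 and 3 counts, with mouse 3 the highest as for Ngp, Ltf and Camp. Cyp2b10, a P450 induced by the receptor CAR, had 4, 6, 209, 11 and 33 counts. Ptgds, a prostaglandin synthase, had 5, 21, 243, 22 and 29. Moxd1 was high in mouse 5 alone, with 1, 5, 2, 19 and 258 counts, and Ppp1r3g, a glycogen-targeting subunit, was high in mouse 1, with 138, 17, 50, 13 and 2.

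Transcript classes differed in spread. Of 12153 kept protein coding genes 378 spanned 4-fold, of 121 lincRNA genes 10, and of 11 snoRNA genes 5. The median snoRNA deviated by -1.21 in mouse 1 and by 0.56 in mouse 3 on the log2 scale. Antisense genes deviated by 0.36 in mouse 4. Whether reads of antisense genes can be told from those of the gene they overlap depends on strand, which is not given for the counting.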
